A study of Drosophila melanogaster with 4 samples.

Results

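CBP regions were examined at a pair of Notch gene complexes of Drosophila melanogaster, the Bearded complex on chromosome arm 3L and the Enhancer of split complex on 3R, in gd7 and wild-type embryos aged 2 to 4 hours. The members are all CBP-bound regions that overlap by at least 1 bp a window of 90 kb around each complex, from 14.93 to 15.02 Mb on 3L and from 21.8 to 21.89 Mb on 3R, in coordinates of genome release 5. These were 55 of 4952 listed regions, 27 of 1939 in gd7 and 28 of 3013 in wild-type. The Bearded complex was selected on the values themselves, as the highest gd7 value of the genome lies next to Tom, and the Enhancer of split complex was chosen with results of these data known. The values and differences below are therefore a description and carry no test.

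The gd7 embryos came from mothers homozygous for gd7, a mutation of the gastrulation defective gene, lack Dorsal in their nuclei and consist of presumptive dorsal ectoderm along the whole dorso-ventral axis. The wild-type embryos came from w1118 flies and hold presumptive mesoderm, neuroectoderm and dorsal ectoderm. For each genotype, CBP, the acetyltransferase co-activator encoded by nejire, was immunoprecipitated with a rabbit antibody, material of several precipitations was pooled into 1 library, and 1 input library was sequenced. Whole embryos were used, so more cells with CBP at a site and more CBP per cell cannot be told apart. With 1 CBP library per genotype there is no replicate check of any difference, and the deposited lists give no read counts, so the precision of a single value is not known. All values are log2 ChIP over input at the peak of a region.

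Notch signaling lets neighbouring cells adopt different fates. Genes of the Enhancer of split complex are its best known targets: their basic helix-loop-helix proteins repress the proneural genes together with Groucho, the co-repressor encoded at one end of the same complex. The Bearded family encodes small proteins that inhibit Neuralized, an E3 ubiquitin ligase that promotes endocytosis of Notch ligands, and in the blastoderm embryo the Bearded genes are repressed by Snail in the mesoderm. Family members lie in both complexes. In the current annotation the order of the protein-coding genes on 3L is CG13465, BobA, Tom, Brd, Ocho and CG3349. On 3R it is E(spl)mdelta-HLH, E(spl)mgamma-HLH, E(spl)mbeta-HLH, E(spl)malpha-BFM, Kaz-m1, E(spl)m2-BFM, E(spl)m3-HLH, E(spl)m4-BFM, E(spl)m5-HLH, E(spl)m6-BFM, E(spl)m7-HLH, E(spl)m8-HLH and gro. Of these 13 genes on 3R, 7 encode basic helix-loop-helix proteins and 4 belong to the Bearded family, as their symbols say.

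Both complexes held many CBP regions in both genotypes. In the Bearded complex, 14 regions covered 17990 bp in gd7, and 15 regions covered 12775 bp in wild-type. Their median value was 3.30 in gd7 and 2.36 in wild-type, next to 2.53 over the whole gd7 list and 2.40 over the whole wild-type list. In the Enhancer of split complex, 13 regions covered 9205 bp in gd7 and 13 regions covered 8785 bp in wild-type, with a median of 2.61 in gd7 and 2.62 in wild-type.

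Nearly all wild-type regions of the Bearded complex had a counterpart in gd7. Of the 15 wild-type regions, 14 (93.3%, 95% Wilson interval 70.2 to 98.8%) overlapped a gd7 region, next to 40.4% of all wild-type regions. Of the 14 gd7 regions, 11 (78.6%, 52.4 to 92.4%) overlapped a wild-type region, next to 62.7% of all gd7 regions. In the Enhancer of split complex 10 of 13 regions were shared in each list (76.9%, 49.7 to 91.8%). The intervals cover counting error alone, and neighbouring regions are not independent.

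**Figure D1:**
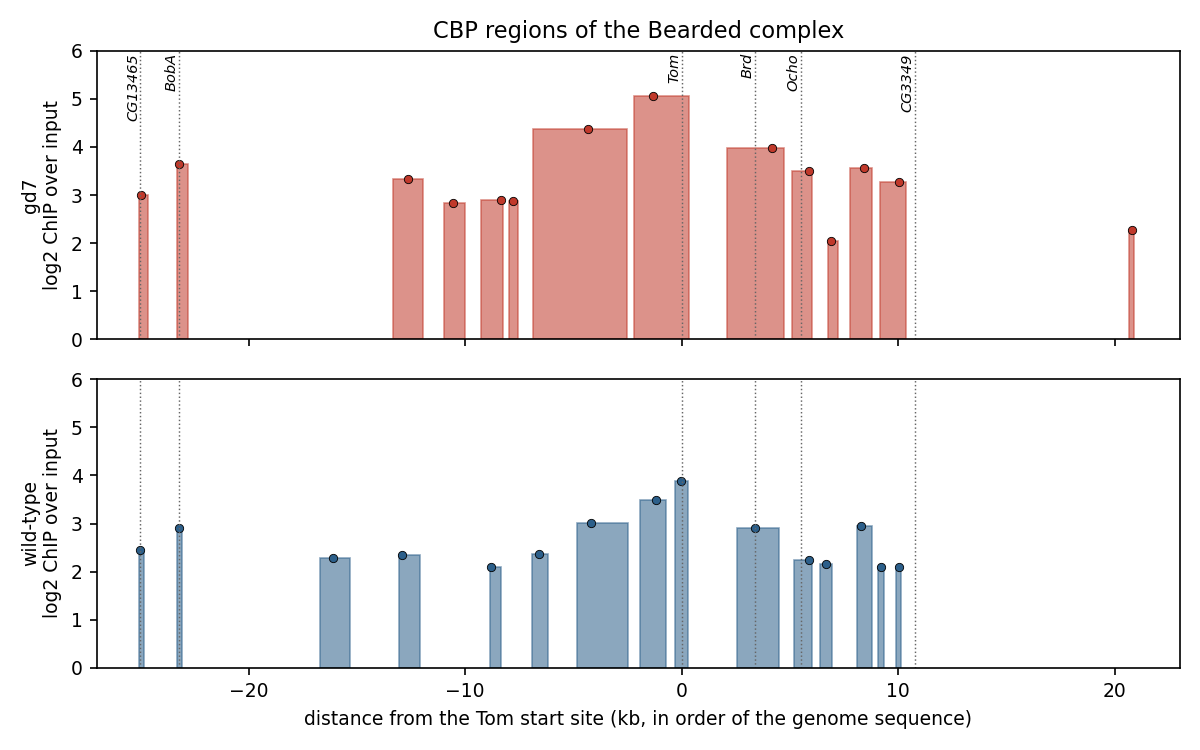
CBP regions of the Bearded complex in gd7 (upper panel) and wild-type (lower panel). The x axis gives the distance from the Tom start site in kb and the y axis log2 ChIP over input; each box spans 1 region and is as high as its listed peak value, points mark peak centres, and dotted lines mark start sites. The region that reaches the Tom start site has a value of 5.06 in gd7 and 3.89 in wild-type.

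The region with the highest value of the Bearded complex held the Tom start site in both genotypes. In gd7 a region of 2520 bp, on 3L from 14960260 to 14962780, held the Tom start site and had a value of 5.06, rank 1 of 1939. Its centre lay 1312 bp from the start site. In wild-type the same stretch was split into 2 regions. The one from 14962150 to 14962745, centred 52 bp from the start site, had 3.89 and was rank 68 of 3013. The other, from 14960505 to 14961730 and centred 1207 bp from the start site, had 3.49 and was rank 171. The order of the peaks thus differed: the start site carried the higher value in wild-type, whereas the gd7 centre lay 105 bp from the centre of the farther wild-type region. The gd7 value exceeded that of the wild-type region at the start site by 1.16 on the log2 scale, and that of the farther region by 1.57. How much CBP gd7 embryos had at the start site itself is not listed, since a region is given by its peak alone.

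A second broad gd7 region lay next to it, from 14955570 to 14959910. At 4340 bp it was rank 3 of 1939 by length, and with a value of 4.37 it was rank 7 by value. It overlapped 2 wild-type regions, one from 14957600 to 14959945 with 3.0, centred 4182 bp from the Tom start site, and one from 14955535 to 14956270 with 2.36. The first of these was rank 14 of 3013 by length, so this stretch was broad in both genotypes. Its centre lay 140 bp from the gd7 centre, and the difference there was 1.37. The difference at the weaker wild-type region, 2.01, was rank 2 of all 1217 shared wild-type regions, but the gd7 centre lay 2275 bp away from it, outside that region.

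Between the BobA and Tom start sites, which are 23235 bp apart, CBP regions covered 46.2% of the sequence in gd7 and 32.8% in wild-type. Farther from Tom the interval held regions with lower values. One from 14949130 to 14950495 in gd7 had a value of 3.33, against 2.35 for its wild-type counterpart, a difference of 0.99. Another from 14953190 to 14954170 had 2.90 in gd7 and 2.09 in wild-type. The interval also held members found in 1 genotype alone. In gd7 these were regions from 14951475 to 14952455, with 2.83, and from 14954450 to 14954905, with 2.87. In wild-type it was a region of 1400 bp from 14945735 to 14947135, with 2.27, the one wild-type member of this complex with no gd7 region. Since the lowest listed value was 1.93 in gd7 and 1.88 in wild-type, the regions found in gd7 alone stood 0.95 and 0.99 above the wild-type limit, and the wild-type region 0.34 above the gd7 limit.

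Brd, the founding member of the family, had its start site within a long region in both genotypes. The gd7 region, from 14964530 to 14967155, had a value of 3.98 and was rank 28 of 1939. The wild-type region, from 14965020 to 14966945, had 2.91 and was rank 586 of 3013. The difference was 1.07. Here too the peak had moved, since the gd7 centre lay 770 bp from the wild-type centre, which was itself 56 bp from the Brd start site.

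Regions also held the start sites of Ocho and BobA, further members of the family, and of CG13465. At Ocho the region that held the start site had 3.50 in gd7 and 2.24 in wild-type, a difference of 1.26, with centres 35 bp apart. At BobA it had 3.65 in gd7 and 2.92 in wild-type, with the same centre in both, 13 bp from the start site, and a difference of 0.73. At CG13465, the neighbour of BobA, it had 3.0 in gd7 and 2.45 in wild-type, a difference of 0.55. Of the 6 start sites placed in this complex, 5 lay within a region in gd7 and 5 in wild-type, those of CG13465, BobA, Tom, Brd and Ocho in each case. The start site of CG3349 lay in none. Only genes named as nearest to a listed wild-type peak could be placed, which favours a high share within regions.

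Toward CG3349 the regions were narrower and weaker in wild-type. A gd7 region from 14971600 to 14972825 had a value of 3.28 and spanned 2 wild-type regions, with 2.11 and 2.10. Their differences were 1.17 and 1.18. The neighbouring region, from 14970200 to 14971215 in gd7, had 3.56, against 2.95 in wild-type. Between it and Ocho lay the one shared region with a lower value in gd7, from 14969220 to 14969640, with 2.05 in gd7 and 2.16 in wild-type, a difference of -0.12. The last gd7 region of the window, from 14983115 to 14983325 with 2.28, lay apart from the others and had no wild-type counterpart.

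**Figure D2:**
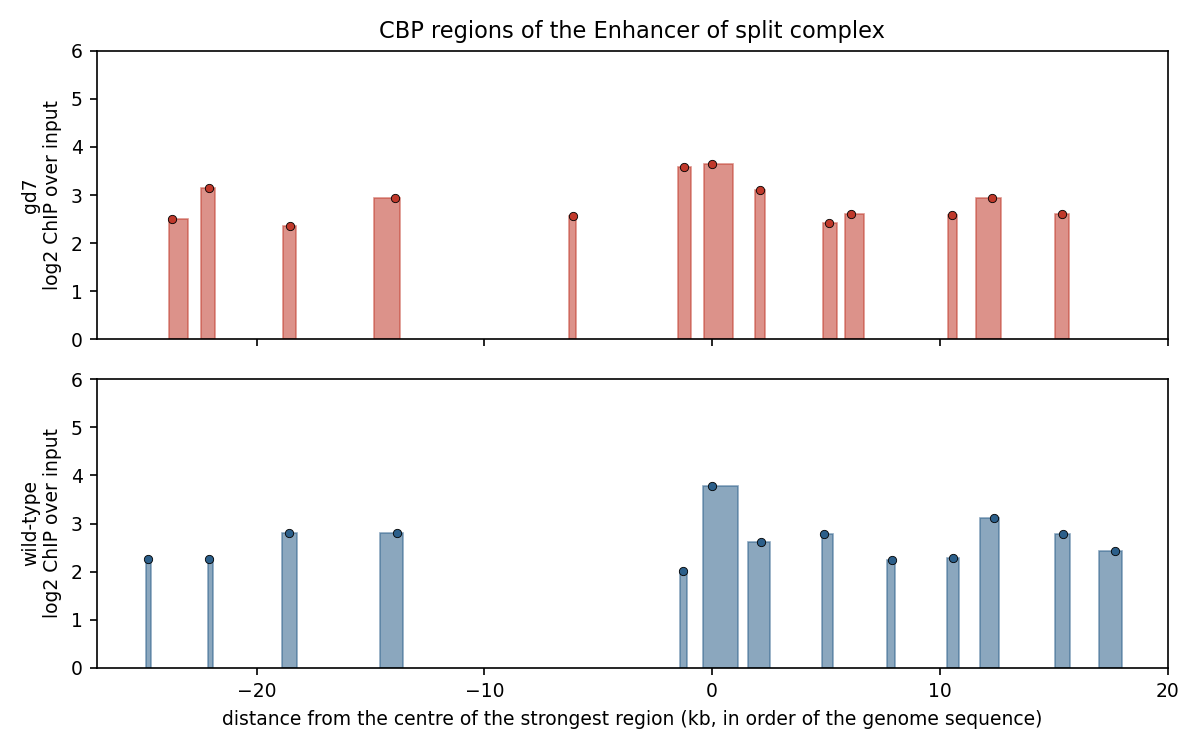
CBP regions of the Enhancer of split complex in gd7 (upper panel) and wild-type (lower panel). The x axis gives the distance in kb from the centre of the strongest region, which is the same in both genotypes, and the y axis log2 ChIP over input; boxes and points are drawn as for the Bearded complex. The strongest region has 3.65 in gd7 and 3.79 in wild-type.

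In the Enhancer of split complex most regions differed little between the genotypes. No release 5 gene positions were used on this part of 3R, so its regions are given by position and not by gene. The strongest, from 21850045 to 21851305 in gd7 and from 21850010 to 21851550 in wild-type, had a value of 3.65 in gd7 and 3.79 in wild-type. Its centre was the same in both lists, and it was rank 94 of 1939 in gd7 and rank 87 of 3013 in wild-type. It was also among the longest of the complex, with 1260 bp in gd7 and 1540 bp in wild-type.

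The largest difference of the complex lay right beside it. The region from 21848890 to 21849485 in gd7 had a value of 3.58 and was rank 118 of 1939. Its wild-type counterpart, from 21848995 to 21849275, had 2.02 and was rank 2701 of 3013. The difference of 1.56 was rank 17 of the 1217 shared regions, and the centres lay 35 bp apart. This was the one region of the complex with a value more than 2-fold higher in gd7. The next in size was a region from 21827960 to 21828555 in gd7, with 3.15, against 2.26 in wild-type, a difference of 0.89 with the same centre in both.

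Of the other 8 shared regions of the Enhancer of split complex, 3 had a higher and 5 a lower value in gd7, with differences from -0.46 to 0.48. The most reduced, from 21831565 to 21832125, had 2.35 in gd7 and 2.81 in wild-type. Another, from 21855260 to 21855855, had 2.42 in gd7 and 2.79 in wild-type. A region from 21861980 to 21863065 in gd7 had 2.95, against 3.11 in wild-type. Regions found in gd7 alone had values of 2.51, 2.56 and 2.61, and those found in wild-type alone 2.26, 2.25 and 2.42. None of these stood more than 0.72 above the limit of the other list. The cluster began and ended with regions found in 1 genotype alone, in wild-type a region from 21825545 to 21825755 at one end and a region from 21867370 to 21868385 at the other.

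**Figure D3:**
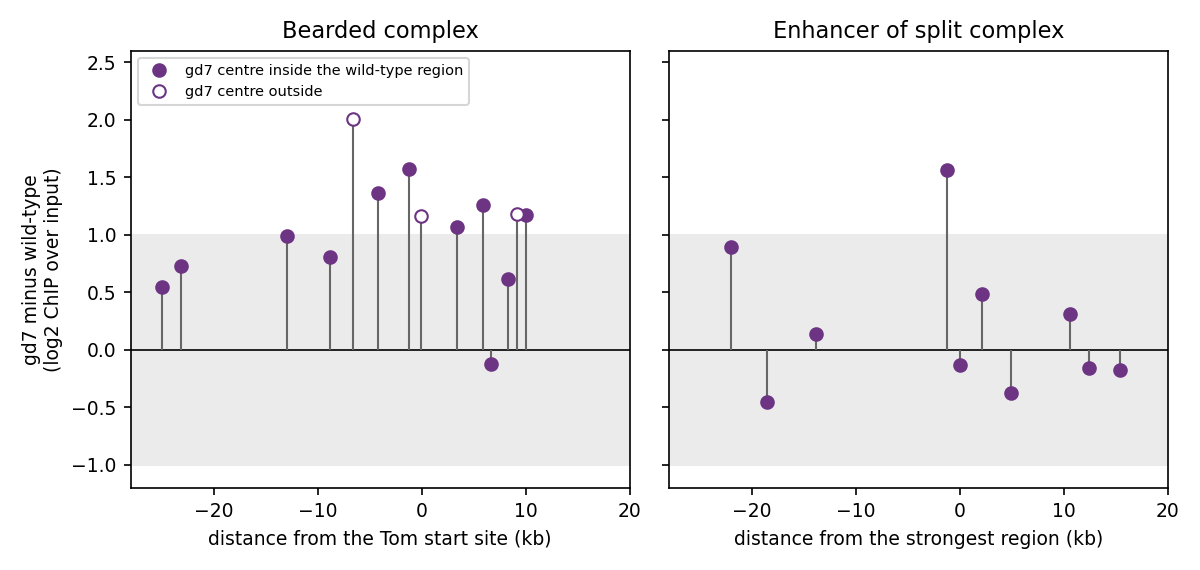
Difference between gd7 and wild-type at each shared wild-type region, on the log2 scale, by distance in kb from the Tom start site (left) or from the strongest region of the Enhancer of split complex (right). The grey band marks differences of no more than 2-fold, and open points mark regions whose gd7 centre lies outside the wild-type region. Of 14 Bearded points 13 lie above 0, and of 10 Enhancer of split points 5 do.

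The direction of the differences was counted in each complex. In the Bearded complex the gd7 value was above the wild-type value at 13 of 14 shared wild-type regions, next to 53.2% of all shared regions. It was more than 2-fold higher at 8, next to 10.2% of all, and more than 2-fold lower at 0, next to 5.92% of all. The 0 is limited by the lists. A shared region has a listed gd7 value, of at least 1.93, so a weak wild-type region cannot be called lower. The median wild-type value was 2.41 at the shared Bearded regions, next to 2.65 at all shared regions, so most Bearded regions could not be called lower. The median difference was 1.12, with a range from -0.12 to 2.01. In the Enhancer of split complex the gd7 value was above the wild-type value at 5 of 10 regions and more than 2-fold higher at 1, with a median difference of 0.00 and a range from -0.46 to 1.56. Over all shared regions the median was 0.06. Ranges of the complexes overlapped, and whether they differ was not tested, as regions of 1 library pair are not replicates.

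The count of 8 depends on how regions are paired, because 3 gd7 regions of the Bearded complex each spanned 2 wild-type regions. Of all shared gd7 regions 3.95% spanned at least 2, and in the Enhancer of split complex 0 did. Counted per gd7 region, with the stronger wild-type region as its partner, 5 of 11 were more than 2-fold higher in gd7, next to 7.98% of all shared gd7 regions, 0 were more than 2-fold lower, next to 7.24%, and 10 had the higher value in gd7, next to 49.4%. The limit on lower calls holds here too. The 5 with the more than 2-fold higher value were the regions at Tom, Brd and Ocho, the broad region beside Tom and the region next to CG3349. Where the gd7 centre had to lie inside the wild-type region, the count was also 5, here of 11. Of all 1068 regions shared under that rule, 8.15% were more than 2-fold higher. The median difference was 0.99 in either case, next to -0.02 over all shared gd7 regions and -0.03 over all regions under the centre rule.

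Grouping by the distance of the wild-type centre from a start site did not separate the differences in the Bearded complex. The 5 wild-type regions centred within 500 bp of a start site were all shared, with a median difference of 1.07 and a range from 0.55 to 1.26. At Tom and Brd, however, the gd7 partner was centred 1312 bp and at least 714 bp from the start site. Only CG13465, BobA and Ocho, with 0.55, 0.73 and 1.26, compare centres within 500 bp of a start site in both genotypes. The 9 shared regions farther away had a median of 1.17 and a range from -0.12 to 2.01, so that the ranges overlapped. In gd7, 3 of the 14 regions were centred within 500 bp of a start site, against 5 of the 15 in wild-type. The annotation also holds non-coding genes, lncRNA:CR45978 between BobA and Tom and lncRNA:marge between Ocho and CG3349. Their start sites were not placed, so a region counted as farther away may lie near one of them.

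Regions of the Bearded complex were also broader in gd7. The gd7 region was the longer one at 13 of 14 shared wild-type regions, next to 47.1% of all shared regions, and at 5 of 10 in the Enhancer of split complex. Of these 14, 6 were paired with 3 gd7 regions that each spanned 2 wild-type regions, which favours the longer gd7 region. The length count was not repeated per gd7 region. Regions of at least 1 kb numbered 6 of 14 in gd7 and 4 of 15 in wild-type, next to 13.6% of all gd7 and 6.8% of all wild-type regions. In the Enhancer of split complex 3 of 13 reached 1 kb in each genotype. Length and value are not independent measures, as both were read from the same signal above 1 limit.

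The median gap between neighbouring regions of the Bearded complex was shorter in gd7, although the regions did not span a shorter stretch. They spanned 45955 bp in gd7 and 35210 bp in wild-type, with a largest gap of 10290 bp in gd7 and 6370 bp in wild-type. Gap and length are not independent measures, as longer regions leave shorter gaps. In the Bearded complex the median gap was 735 bp in gd7 and 1242 bp in wild-type, and 9 of 13 gaps in gd7 were shorter than 1 kb, against 6 of 14 in wild-type. The Enhancer of split regions were spaced more widely, with median gaps of 2468 bp in gd7 and 2328 bp in wild-type.

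**Figure D4:**
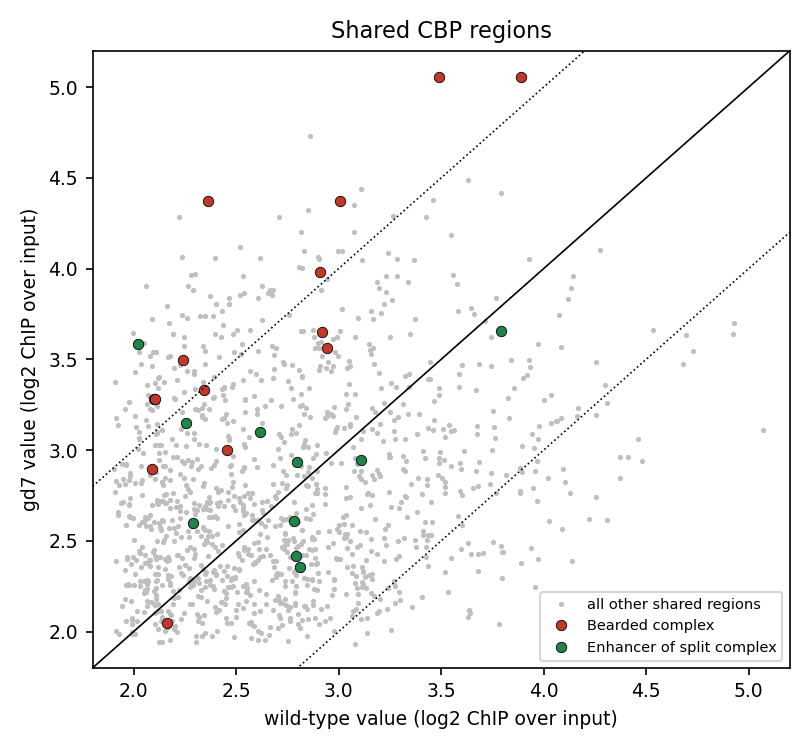
Values of all 1217 shared wild-type CBP regions in gd7 (y axis) against wild-type (x axis), both as log2 ChIP over input, with the Bearded and Enhancer of split regions in colour. The solid line marks equal values and the dotted lines a 2-fold difference. Bearded regions lie on or above the line of equal values except for 1 at 2.05 in gd7 and 2.16 in wild-type.

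The Bearded complex ranked higher in the gd7 list than in the wild-type list. Ranks restate the values, on which the complex was selected, and add no separate evidence. Among its regions, 3 of 14 belonged to the highest 5% of gd7 values and 12 had a value of at least 2.5, next to 52.4% of all gd7 regions. In wild-type 1 of 15 belonged to the highest 5% and 6 had at least 2.5, next to 42.7% of all wild-type regions. For the Enhancer of split complex these numbers were 1 and 11 of 13 in gd7, and 1 and 7 of 13 in wild-type. Its values ranged from 2.35 to 3.65 in gd7 and from 2.02 to 3.79 in wild-type.

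Few stretches of the genome were as densely bound. When the rest of the genome was divided into 1320 tiles of 90 kb, the median tile held 1 region in gd7 and 2 in wild-type. As many regions as the Bearded window were found in 3 tiles in gd7 and in 1 in wild-type, and as many as the Enhancer of split window in 3 tiles in gd7 and in 3 in wild-type. No tile had as much sequence covered in gd7 as the Bearded window, where the highest other value was 12005 bp, and 1 tile did in wild-type, with 12950 bp. For the Enhancer of split window, 5 tiles in gd7 and 3 in wild-type covered as much. The windows were placed around the clusters whereas the tiles follow a fixed grid that can divide a cluster, which favours the windows.

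**Figure D5:**
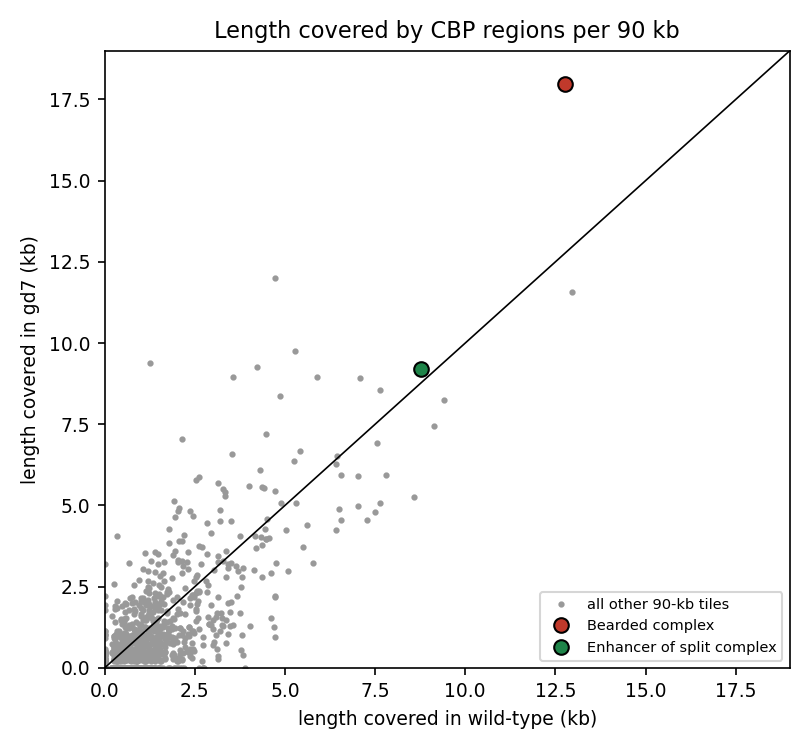
Length covered by CBP regions in gd7 (y axis) against wild-type (x axis), in kb per 90-kb tile of the genome, with the Bearded and Enhancer of split windows in colour and the line of equal length. The Bearded window has 17990 bp in gd7 and 12775 bp in wild-type, and the Enhancer of split window 9205 bp in gd7 and 8785 bp in wild-type.

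Other densely bound stretches showed both directions. Of 53 other tiles with at least 5 shared wild-type regions, 2 had a median difference above that of the Bearded complex, with the highest at 1.17, and 51 a lower one. The lowest was -0.94. The median of the Enhancer of split complex was exceeded in 37 of them and lay above that of 16.

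The clusters had clear borders. On 3L, the next region above the window in gd7 lay from 15032675 to 15033165, with a value of 2.92, and in wild-type from 15032850 to 15033060, nearest to Rpn12R, with 1.96. Below the window the next region was 152615 bp away in gd7 and 134695 bp away in wild-type. On 3R the nearest regions outside the window were 326100 bp and 733615 bp away in gd7, and 92195 bp and 34770 bp away in wild-type, with values from 1.98 to 2.46. The position of the window edges therefore decided the membership of no region within 10 kb.

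Regions at other genes of the Notch pathway differed in both directions. From a list of 25 genes of the pathway and its neural targets, which includes gro, 10 genes outside both complexes had a nearest wild-type region on 2L, 2R, 3L or the part of 3R up to 10540110, with 22 regions in all. Of these, 15 were shared, next to 40.4% of all wild-type regions. The gd7 value was more than 2-fold higher at 4, next to 10.2% of all shared regions, and more than 2-fold lower at 2, next to 5.92%. The 4 include 2 regions nearest to emc that were paired with the same gd7 region. The median difference was 0.19, within a range from -1.37 to 1.47. The list was set with results of these data known. Genes on X, such as N, and on the rest of 3R could not be given a region. A listed gene without a region here is therefore not shown to lack CBP.

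The regions nearest to neur, which encodes the ligase that Bearded proteins inhibit, differed unequally. One lay on 3R from 4855760 to 4856355 in gd7 and had 3.73 there, against 2.26 in wild-type, a difference of 1.47. The other, which lies nearer to the start site, had 3.02 in gd7 and 2.83 in wild-type, a difference of 0.19. Of 3 shared regions nearest to mam, the gene of the co-activator Mastermind that acts in the nuclear Notch complex, one had 3.29 in gd7 and 2.20 in wild-type, and another 2.81 in gd7 and 3.35 in wild-type. The numb gene, which encodes an inhibitor of Notch, had 3.41 in gd7 over a stretch that held 2 wild-type regions, with 2.82 and 3.32.

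The strongest difference toward wild-type was at sim, a regulator of the midline whose mesectodermal expression depends on Notch. Its strongest region, on 3R from 8889755 to 8890245 in gd7, had 2.76 in gd7 and 4.13 in wild-type, a difference of -1.37. Another shared sim region had 2.32 in gd7 and 2.90 in wild-type, and 2 further wild-type regions, with 2.88 and 2.27, had no gd7 region. The regions nearest to fng, which encodes a glycosyltransferase that modifies Notch, with 3.08, and to mib1, another ligase for Notch ligands, with 2.63, were found in wild-type alone. So were 1796 of all 3013 wild-type regions. At emc, whose product binds basic helix-loop-helix proteins and keeps them from DNA, the strongest wild-type region had 3.64 in gd7 and 4.69 in wild-type, whereas 2 weaker ones, with 2.15 and 2.34, were overlapped by 1 gd7 region with 3.38.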

How the data were processed

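CBP ChIP-seq and input libraries from gd7 and wild-type embryos were compared, 1 of each per genotype. The authors aligned reads to genome release 5 with Bioscope 1.2.1, calculated log2 ratios of ChIP to input every 35 bp, smoothed it over 350 bp, and joined the highest 5% of values into regions of at least 200 bp, listed with a value averaged over the highest 5 consecutive ratios. The deposited log2 value is this average minus a constant, 1.88 in wild-type and 1.93 in gd7. The constants were found from 1999 and 170 regions that the peak table of the study also holds, with deviations of at most 5.0e-06, and were added back. The authors did not normalize the genotypes to each other. The lists hold no signal below the limit, and read depth per region is not known.

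Members and gene lists were chosen with earlier results of these data known. All genes of both complexes were to be named. A wild-type region was shared when it overlapped a gd7 region by at least 1 bp, and the difference is the highest overlapping gd7 value minus its own. Limits were 2-fold, as in the methods of the study. Start sites of the Bearded complex were placed from peak centres and distances in the peak table, for genes named there as nearest to a wild-type peak. They are fixed to the base for BobA, Tom, Ocho and CG3349 and have 2 possible positions, 112 bp apart for Brd and 96 bp for CG13465. Names and order on 3R come from a release 6 table, whose coordinates were not used. The promoter motifs that were planned were not analysed here. BobB and BobC are not reported. Shares have 95% Wilson intervals. Python 3.11.15, numpy 2.4.6, pandas 2.3.3, scipy 1.17.1, matplotlib 3.10.9 and bedtools 2.31.1 were used, and the counting was checked on simulated regions, where 1000 of 1000 overlaps were recovered. The simulated regions were paired 1 to 1, so the check did not cover a region that spans 2 others. Alternatives changed the membership rule, the overlap rule, the value limit, a wild-type list cut to the size of the gd7 list, pairing from the gd7 side, the centring and the fold limit.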

Additional observations from a re-analysis of the deposited data

How the results depend on the processing

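Over 14 counts, shares and medians, 44 of 54 values under alternatives stayed close to the reported ones. Close means within 1.5-fold for counts and within the 95% interval for shares and medians. This tally does not measure robustness. Both window rules could change no count, as no region crossed a window edge or lay within 10 kb outside it. The intervals are wide and come from few neighbouring regions. Called differences changed sign in 0 cases, but this was fixed in advance, as the alternatives shifted each by -0.05 or -0.06 or kept it. Requiring a value of at least 2.5 left 6 wild-type regions in the Bearded and 7 in the Enhancer of split complex, and the shared part became 41.7% of gd7 and 100% of wild-type regions in the Bearded complex and 45.5% of gd7 regions in the Enhancer of split complex, since weak partners drop out of the wild-type list. When centres had to lie within 200 bp of each other, 50% of gd7 and 46.7% of wild-type regions of the Bearded complex were shared. The shares over all regions under the value rule and the centre rule were not calculated. Whether the complexes still exceed the whole lists under these rules is therefore not known. The number of Bearded regions more than 2-fold higher in gd7 was 5 per gd7 region, next to 7.98% of all. It was also 5 with the gd7 centre inside the wild-type region, next to 8.15% of all. At 1.5-fold limits the number was 12 in the Bearded and 2 in the Enhancer of split complex, next to 24.1% of all shared regions. Taking the values as deposited shifted every difference by -0.05, and subtracting the median of all shared regions shifted it by -0.06. Neither moved any of 24 differences across the 2-fold limit, but the Enhancer of split median became -0.05 and -0.06. No paired analysis was possible because each genotype has 1 library and the labels give no replicate numbers.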
